A study of Homo sapiens with 8 samples.

Results

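U87MG cells after 24 h of enzalutamide were compared with untreated U87MG cells, 2 libraries against 2 of the 8 that the series holds. U87MG is an established human glioblastoma line, and enzalutamide is an antiandrogen drug that is given for prostate cancer. The cells were grown in DMEM with serum. Controls are labelled as having had no treatment, and the other libraries were taken after 4, 24 or 48 h of the drug, 2 per group. The labels give no dose, no vehicle and no time in culture for the controls, so drug, solvent and time in the dish cannot be told apart. The extraction protocol mentions differentiation, which appears nowhere else in the labels. Whether replicates are separate cultures is not said, so the p-values rest on a spread that may be purely technical. Members were all genes with enough counts to be tested, 14448 of the 23368 listed. The question was which genes were higher or lower at 24 h, and where that time stood between 4 and 48 h.

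The cell division cycle runs on waves of transcription. E2F factors, held back by pocket proteins such as RB1, switch on genes for DNA synthesis at the entry into S phase, and the MuvB complex with MYBL2 and then FOXM1 switches on the genes of mitosis. Many promoters of the first wave carry E2F sites, and many of the second carry a CCAAT box and a cell cycle homology region, the CHR. p53 works against both waves, mainly through CDKN1A, which blocks cyclin-dependent kinases and thereby keeps pocket proteins active. Glioblastoma cells also make an abundant extracellular matrix and secrete cytokines, and these genes answer to NF-kappaB, TGF-beta and hypoxia signals.

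Total counts were 33025426 and 32298781 in the controls and 37162565 and 33105625 at 24 h, within a range of 24620833 to 37162565 over all 8 libraries. Replicates correlated at Pearson's r of 0.995 in both groups across genes, which are not independent replicates, and still differed beyond counting noise. Levels are given as CPM, counts relative to library size, with TMM factors of 1.03 to 1.08 in these 4 libraries. VIM, the filament of mesenchymal cells, was at 7917 and 8066 CPM in the controls and 7983 and 7730.2 CPM at 24 h. GFAP, the filament of astrocytes, was at 0.227 and 0.633 CPM in the controls and 0.525 and 0.44 CPM at 24 h. None of 10 immune and none of 6 erythroid markers reached the filter, and only 2 of 7 oligodendrocyte markers did. Markers of other cell types reached it more often, 7 of 10 for neurons, 6 of 8 for endothelial cells, 4 of 8 for astrocytes and 3 of 7 for epithelial cells. PROM1 and SOX2, markers often used for glioma stem cells, did not reach the filter and were not tested. In bulk RNA, fewer cells in a state and less RNA per cell in that state cannot be told apart.

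At 24 h, 3222 of 14448 tested genes (22.3%) were called by edgeR's quasi-likelihood test at a Benjamini-Hochberg adjusted p under 0.05, of which 1866 were higher (12.9%) and 1356 lower (9.39%). The median log2 change of all tested genes was 0.01. Changes of at least 2-fold were few, 244 higher (1.69%) and 171 lower (1.18%). Scaling by library totals alone gave 1359 higher and 1920 lower, so that 41.4% of calls were higher against 57.9% here. Scaling by the size factors of DESeq2 gave 1640 higher and 1604 lower, with 50.6% of calls higher. The balance of rises and falls over all genes thus rests on the scaling. Leaving out control 1, control 2, 24 h 1 or 24 h 2 left 843, 1058, 936 and 860 higher and 516, 608, 523 and 489 lower. Leaving out either 48 h library, which shares in the estimate of spread, gave 2878 and 2879 higher and 2074 and 2075 lower. Below, counts without each library in turn are in the order control 1, control 2, 24 h 1 and 24 h 2. Genes called here and given with their values in each library kept their call in every setting tried unless said otherwise. Genes given by a log2 change alone were mostly chosen after their values were seen, to complete a count. Of 569 called members of the lists, 257 lost the call in at least 1 setting, and this is said of the called genes named here that did so. Counts of called list members are to be read beside the shares of all tested genes, 22.3% called, 12.9% higher and 9.39% lower. The groups did not overlap for 66.2% of all tested genes, so a lack of overlap given below is a description and no further support for a call. Each change below is a log2 difference, 24 h minus control, with its standard error and the adjusted p of this test.

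**Figure D1:**
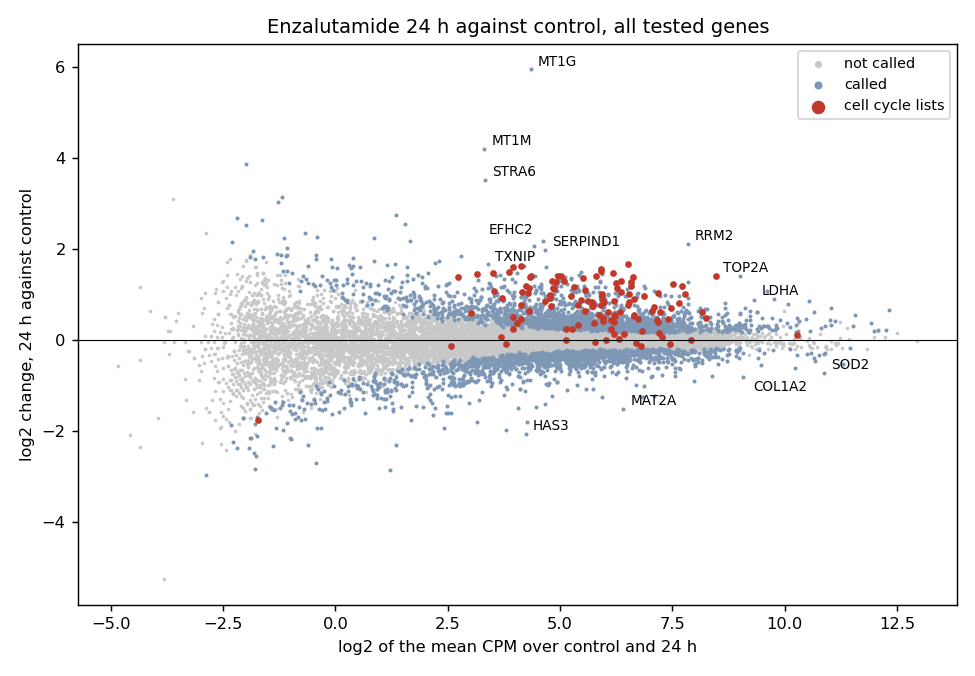
Each point is a tested gene, with the log2 of its mean CPM over the 4 libraries on the x axis and its log2 change at 24 h against control on the y axis. Grey points were not called, blue points were called and red points are members of the cell cycle lists, nearly all of them above 0.

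Large rises outside the gene groups described later were in genes of varied roles. SERPIND1, which encodes the thrombin inhibitor heparin cofactor II, stood at 11.7 and 8.77 CPM in the controls and 44 and 37.4 CPM at 24 h (log2 change 1.99 ± 0.16, adjusted p = 1.1e-05). DPF1, a subunit of a neural form of the BAF chromatin remodeller, stood at 2.89 and 3.11 CPM in the controls and 10.9 and 10.9 CPM at 24 h (log2 change 1.86 ± 0.19, adjusted p = 6.6e-05). Genes in this paragraph and the next were chosen among calls whose groups did not overlap, so their lack of overlap is no further result. TXNIP, an arrestin-like protein that binds thioredoxin and restrains glucose uptake, was at 4.36 and 5.72 CPM in the controls and 16.5 and 15.6 CPM at 24 h (log2 change 1.67 ± 0.16, adjusted p = 5.1e-05). IGFBP1, a secreted binder of insulin-like growth factors, was at 14.4 and 11 CPM in the controls and 41.5 and 36 CPM at 24 h (log2 change 1.61 ± 0.12, adjusted p = 9.4e-06). SERPIND1, TXNIP and IGFBP1 were already high at 4 h, with 42.7 and 41.4, 19.8 and 25.9 and 34.8 and 35.9 CPM, whereas DPF1 had 3.36 and 4.29 CPM there.

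Large falls outside those groups were also in genes of varied roles. NR0B1, which encodes the orphan nuclear receptor DAX1 and represses steroid-making genes, stood at 9.01 and 9.0 CPM in the controls and 2.81 and 3.11 CPM at 24 h (log2 change -1.61 ± 0.14, adjusted p = 1.8e-05). CH25H, the enzyme that makes 25-hydroxycholesterol, stood at 8.78 and 7.74 CPM in the controls and 2.63 and 2.82 CPM at 24 h (log2 change -1.60 ± 0.16, adjusted p = 5.2e-05). DGCR8, the RNA-binding partner of DROSHA in microRNA maturation, stood at 32.5 and 32.4 CPM in the controls and 12.2 and 11.4 CPM at 24 h (log2 change -1.46 ± 0.09, adjusted p = 2.9e-06). TRIM52, a ubiquitin ligase, was at 23.5 and 26.1 CPM in the controls and 8.58 and 8.96 CPM at 24 h (log2 change -1.50 ± 0.12, adjusted p = 1.0e-05). The noncoding RNA LINC00461 was at 8.24 and 8.92 CPM in the controls and 2.84 and 2.82 CPM at 24 h (log2 change -1.60 ± 0.15, adjusted p = 3.6e-05). PLXDC1, a membrane protein of tumour vessels, stood at 6.69 and 6.18 CPM in the controls and 2.49 and 2.47 CPM at 24 h (log2 change -1.37 ± 0.17, adjusted p = 0.00021). At 4 h DGCR8 had 34.2 and 35.9 CPM, near the controls, and at 48 h it had 0.749 and 0.791 CPM.

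Most genes of the cell cycle lists were called higher. Of 117 measured members on 8 lists, 97 were called higher and 1 lower, 83.8% against 22.3% of all genes, with a median log2 change of 0.81. Without each library in turn there were 88, 90, 87 and 90 higher, and library totals gave 92 higher and 1 lower. The strip plot of changes by role shows that the gain was uneven, with medians of 1.14 for the kinetochore, 1.09 for cytokinesis, 0.94 for spindle motors and kinases, 0.68 for condensin and cohesin, 0.62 for cyclins and their kinases, 0.45 for E2F and MuvB factors and 0.40 for the spindle checkpoint.

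**Figure D2:**
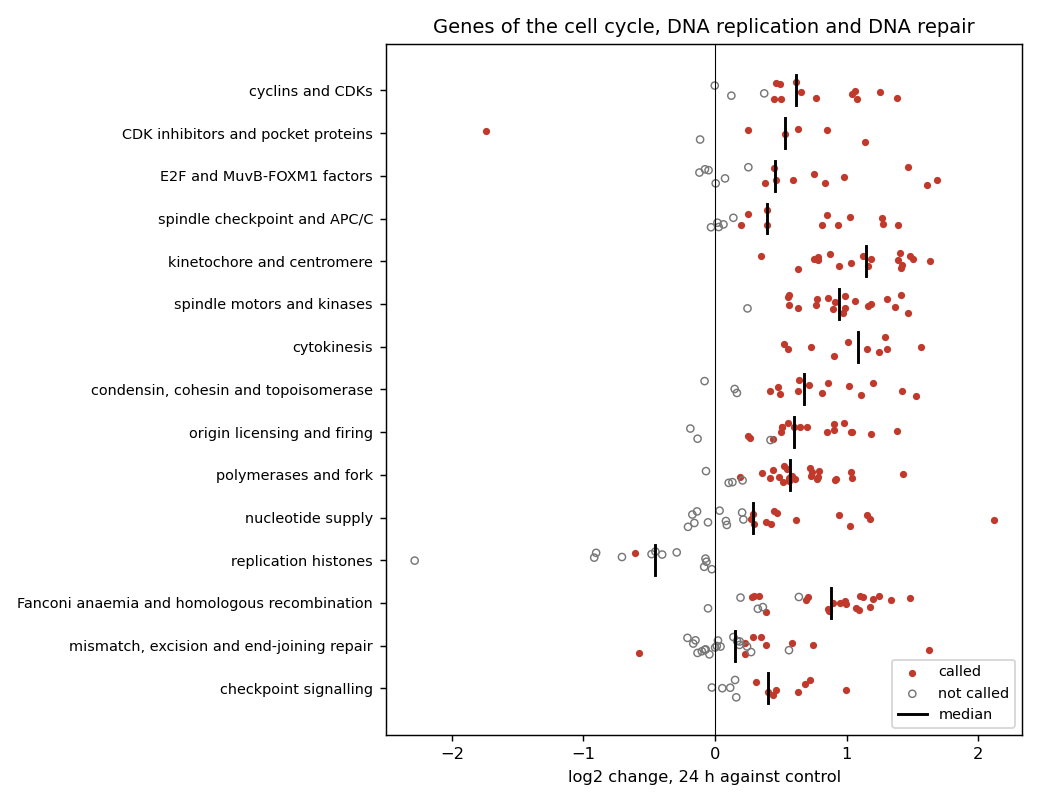
Each point is a measured member of a list, with its log2 change at 24 h against control on the x axis and the list on the y axis. Filled points were called, open points were not and bars are medians. The kinetochore and cytokinesis lists lie wholly to the right of 0, while the replication histones lie to its left.

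Promoters of 6 genes that rose are printed because cell cycle genes were called most often and because they show how the letters of the known sites are spread over its members. They are RefSeq promoters of GRCh38.p14, from 250 bases before to 50 after the start, written 5′ to 3′ in the direction of the gene. Capitals mark 3 motifs, each read on both strands. The CHR is written TTTGAA and the CCAAT box has the letters of its name. The E2F core is written TTCCCGC in one form, TTGGCGC in another form and TTCGCGC in the last. A CCAAT box read backwards ends in the letters TTGG, with which one E2F core begins, so the marks can overlap. CCNB2 is at chr15:59104896-59105195 and KIF11 at chr10:92592880-92593179, both on the plus strand. NCAPG is at chr4:17810729-17811028 and CDK1 at chr10:60778081-60778380, both plus. PCNA is at chr20:5126573-5126872 on the minus strand, and RRM2 is at chr2:10122489-10122788 on the plus strand.
CCNB2: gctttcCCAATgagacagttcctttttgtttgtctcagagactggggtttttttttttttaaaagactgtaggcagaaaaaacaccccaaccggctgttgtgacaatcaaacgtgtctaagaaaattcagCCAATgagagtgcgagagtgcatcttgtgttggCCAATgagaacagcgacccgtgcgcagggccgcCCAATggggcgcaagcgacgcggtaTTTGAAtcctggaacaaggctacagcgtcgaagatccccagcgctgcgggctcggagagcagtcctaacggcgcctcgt
KIF11: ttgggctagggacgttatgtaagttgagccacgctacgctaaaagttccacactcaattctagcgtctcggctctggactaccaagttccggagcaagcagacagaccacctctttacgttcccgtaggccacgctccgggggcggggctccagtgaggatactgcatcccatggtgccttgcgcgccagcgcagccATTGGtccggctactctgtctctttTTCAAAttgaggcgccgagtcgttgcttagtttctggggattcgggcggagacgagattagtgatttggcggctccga
NCAPG: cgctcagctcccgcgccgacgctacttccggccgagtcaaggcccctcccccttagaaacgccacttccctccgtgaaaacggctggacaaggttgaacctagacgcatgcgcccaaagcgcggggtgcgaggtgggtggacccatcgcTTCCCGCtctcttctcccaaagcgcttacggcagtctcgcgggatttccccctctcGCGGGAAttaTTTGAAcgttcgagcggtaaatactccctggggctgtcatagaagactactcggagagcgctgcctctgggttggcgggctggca
CDK1: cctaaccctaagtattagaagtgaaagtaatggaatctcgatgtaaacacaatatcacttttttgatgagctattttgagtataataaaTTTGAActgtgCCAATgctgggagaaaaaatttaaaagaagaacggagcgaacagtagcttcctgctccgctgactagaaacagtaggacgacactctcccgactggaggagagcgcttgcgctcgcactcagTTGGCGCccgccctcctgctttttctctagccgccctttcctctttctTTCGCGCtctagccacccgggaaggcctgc
PCNA: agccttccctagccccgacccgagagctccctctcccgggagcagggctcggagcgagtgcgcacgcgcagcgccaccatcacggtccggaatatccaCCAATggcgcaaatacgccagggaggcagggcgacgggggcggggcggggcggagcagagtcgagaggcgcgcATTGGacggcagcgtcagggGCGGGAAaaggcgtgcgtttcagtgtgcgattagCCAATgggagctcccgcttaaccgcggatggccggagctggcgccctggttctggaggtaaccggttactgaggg
RRM2: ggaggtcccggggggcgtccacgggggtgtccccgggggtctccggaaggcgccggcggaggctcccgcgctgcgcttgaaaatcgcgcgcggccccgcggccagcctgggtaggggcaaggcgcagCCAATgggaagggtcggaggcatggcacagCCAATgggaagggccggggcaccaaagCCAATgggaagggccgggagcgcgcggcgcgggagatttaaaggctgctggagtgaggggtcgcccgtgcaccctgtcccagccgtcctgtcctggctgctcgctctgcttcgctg

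The counts are given for genes of mitosis and of DNA synthesis. CCNB2 holds 1 CHR and 4 CCAAT boxes, KIF11 1 of each, and NCAPG 1 CHR with 2 E2F cores. CDK1 holds 1 CHR, 1 CCAAT box and 2 E2F cores, PCNA holds 3 CCAAT boxes and 1 E2F core, and RRM2 holds 3 CCAAT boxes. A CHR was found in 15.4% of all 27305 promoters of the table, a CCAAT box in 35.7% and an E2F core in 11.2%. Of the tested genes 11048 matched a promoter, with shares of 10.1%, 36.5% and 17.2%. In 17 matched spindle motor and kinase genes the shares were 70.6%, 82.4% and 11.8%, and in 9 cytokinesis genes 77.8%, 88.9% and 22.2%. In 25 matched polymerase and fork genes they were 4%, 52% and 80%, with the E2F core common and the CHR rare. These shares are a description with no test. Over all matched genes, 21.7% of the 1118 with a CHR were called higher at 24 h, against 12.7% of the 9930 without one. An E2F core went with 18.4% called higher among 1901 genes, against 12.7% of 9147. For the CCAAT box the shares were 14.8% and 13%. These are matches of letters in a window, not shown sites.

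Cyclins and cyclin-dependent kinases set the pace of the cycle, and 12 of 15 measured were called higher, none lower. CDK1, the kinase that drives mitosis, stood at 51.5 and 57.9 CPM in the controls and 144 and 141 CPM at 24 h (log2 change 1.38 ± 0.08, adjusted p = 2.6e-06). CCNA2, the cyclin of S phase and G2, stood at 42.3 and 47.9 CPM in the controls and 109.7 and 105 CPM at 24 h (log2 change 1.25 ± 0.08, adjusted p = 2.7e-06). CCNE1, the cyclin of S phase entry, stood at 12.3 and 10.8 CPM in the controls and 23.5 and 24.6 CPM at 24 h (log2 change 1.06 ± 0.11, adjusted p = 8.3e-05). Mean levels rose 2.61-fold, 2.38-fold and 2.09-fold, with no overlap between the groups. CCNB2, a mitotic cyclin whose promoter is printed above, was at 43.3 and 45.8 CPM in the controls and 74.8 and 76.9 CPM at 24 h (log2 change 0.77 ± 0.07, adjusted p = 2.5e-05). CDC25C, the phosphatase that activates CDK1, stood at 6.88 and 8.02 CPM in the controls and 15.8 and 15.6 CPM at 24 h (log2 change 1.08 ± 0.13, adjusted p = 0.00016). CCND1 and CDK4, which act in G1, had the highest CPM of those not called. CCND1 was at 1164 and 1188 CPM in the controls and 1295 and 1267 CPM at 24 h (log2 change 0.12 ± 0.05, adjusted p = 0.12). CDK4 stood at 244 and 236 CPM in the controls and 236 and 243 CPM at 24 h (log2 change -0.00 ± 0.06, adjusted p = 0.99).

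Inhibitors of the cycle rose as well. Of 7 measured inhibitors and pocket proteins, 5 were called higher. CDKN2D, an inhibitor of CDK4 and CDK6, stood at 12.5 and 12.1 CPM in the controls and 27.9 and 26.3 CPM at 24 h (log2 change 1.14 ± 0.10, adjusted p = 2.7e-05). RBL1, the pocket protein p107, stood at 35.5 and 38.6 CPM in the controls and 66.3 and 67.5 CPM at 24 h (log2 change 0.85 ± 0.08, adjusted p = 4.2e-05). RB1 stood at 60 and 62.3 CPM in the controls and 88.3 and 88.3 CPM at 24 h (log2 change 0.53 ± 0.06, adjusted p = 0.00021). The 24 h libraries were above both controls for each. CDKN1B was called only narrowly, at 31.5 and 32.2 CPM in the controls and 38.3 and 37.4 CPM at 24 h (log2 change 0.25 ± 0.08, adjusted p = 0.047), and lost its call in at least 1 of the settings. RBL2 was not called (log2 change -0.11 ± 0.06, adjusted p = 0.20). CDKN1C was the 1 member called lower, at 0.482 and 0.46 CPM in the controls and 0.184 and 0.0881 CPM at 24 h, with 17 and 16 counts in the controls and 7 and 3 at 24 h, and it too lost its call in other settings.

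Of 16 E2F and MuvB-FOXM1 factors 10 were called higher and none lower. MYBL2, the B-MYB partner of MuvB, stood at 43.5 and 42.6 CPM in the controls and 137 and 141 CPM at 24 h (log2 change 1.69 ± 0.09, adjusted p = 1.3e-06). FOXM1, which follows it in G2, stood at 43.1 and 47.4 CPM in the controls and 81.7 and 79.6 CPM at 24 h (log2 change 0.83 ± 0.07, adjusted p = 2.1e-05). E2F1, an activator of S phase genes, stood at 79.5 and 76.7 CPM in the controls and 159 and 149 CPM at 24 h (log2 change 0.98 ± 0.07, adjusted p = 9.3e-06). The groups did not overlap, and MYBL2 rose more than the other two. E2F2, another activator, was at 4.79 and 4.66 CPM in the controls and 12 and 14.2 CPM at 24 h (log2 change 1.47 ± 0.17, adjusted p = 0.00016). E2F8, an atypical repressor that is itself an E2F target, stood at 6.71 and 8.63 CPM in the controls and 21.4 and 25.6 CPM at 24 h (log2 change 1.61 ± 0.15, adjusted p = 3.0e-05). E2F4 and TFDP2 had the highest CPM of the members not called. E2F4, which sits with pocket proteins in resting cells, was at 104 and 105 CPM in the controls and 101 and 101 CPM at 24 h (log2 change -0.05 ± 0.07, adjusted p = 0.68). TFDP2 stood at 63.3 and 66.3 CPM in the controls and 62.7 and 67.4 CPM at 24 h (log2 change 0.00 ± 0.08, adjusted p = 0.97).

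The kinetochore, spindle and cytokinesis lists attach, move and part the chromosomes. All 18 kinetochore and centromere genes and all 10 cytokinesis genes were called higher, as were 19 of 20 spindle motors and kinases, 13 of 16 condensin, cohesin and topoisomerase genes and 11 of 16 genes of the spindle checkpoint and the anaphase-promoting complex. HJURP, the chaperone that loads the centromeric histone CENPA, stood at 28.4 and 31.7 CPM in the controls and 82.3 and 78.8 CPM at 24 h (log2 change 1.42 ± 0.08, adjusted p = 1.6e-06). SPC25 of the NDC80 complex stood at 8.41 and 8.54 CPM in the controls and 27.4 and 25.4 CPM at 24 h (log2 change 1.64 ± 0.13, adjusted p = 1.0e-05). NDC80 itself stood at 24.6 and 24.5 CPM in the controls and 57.2 and 53.1 CPM at 24 h (log2 change 1.17 ± 0.08, adjusted p = 5.3e-06). ZWINT, a scaffold at the kinetochore, was at 60.6 and 56.4 CPM in the controls and 132 and 134 CPM at 24 h (log2 change 1.19 ± 0.09, adjusted p = 8.8e-06). In each, both 24 h libraries lay far above the higher control.

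The motors showed the same picture. KIF11, the motor that pushes spindle poles apart, stood at 36.1 and 41.1 CPM in the controls and 111 and 103 CPM at 24 h (log2 change 1.47 ± 0.08, adjusted p = 1.6e-06). KIF4A, a chromosome-bound motor, stood at 23.7 and 27.2 CPM in the controls and 65.7 and 65.7 CPM at 24 h (log2 change 1.37 ± 0.10, adjusted p = 6.6e-06). TPX2, which activates Aurora A on the spindle, stood at 123 and 135 CPM in the controls and 300.2 and 285 CPM at 24 h (log2 change 1.18 ± 0.07, adjusted p = 2.4e-06). All 3 had groups that did not overlap. KIF18A, a motor that damps chromosome movement, was the 1 motor not called, at 34.4 and 36.1 CPM in the controls and 41.6 and 42.1 CPM at 24 h (log2 change 0.25 ± 0.09, adjusted p = 0.076), although both its 24 h values were above both controls, as they were for 35.6% of all tested genes. The groups did not overlap, in either direction, for 66.2% of tested genes. SHCBP1 led the cytokinesis list at 27.2 and 33.5 CPM in the controls and 92.7 and 86.7 CPM at 24 h (log2 change 1.56 ± 0.10, adjusted p = 4.9e-06). CEP55, which organises the final cut between daughter cells, stood at 44.4 and 50.1 CPM in the controls and 118 and 114 CPM at 24 h (log2 change 1.29 ± 0.07, adjusted p = 1.9e-06). NCAPG, a condensin subunit, was at 30.2 and 31.8 CPM in the controls and 88.8 and 90.4 CPM at 24 h (log2 change 1.53 ± 0.08, adjusted p = 1.2e-06). SMC4 of the same complex stood at 135 and 155 CPM in the controls and 295 and 292 CPM at 24 h (log2 change 1.02 ± 0.07, adjusted p = 5.7e-06).

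The checkpoint list was less uniform. UBE2C, the ubiquitin-conjugating enzyme of the anaphase-promoting complex, stood at 54.1 and 58 CPM in the controls and 142 and 129.8 CPM at 24 h (log2 change 1.28 ± 0.09, adjusted p = 5.3e-06). TTK, the kinase that starts the checkpoint, stood at 10.3 and 11.8 CPM in the controls and 29.6 and 28.2 CPM at 24 h (log2 change 1.39 ± 0.10, adjusted p = 8.8e-06). ESPL1, the separase that cleaves cohesin, stood at 17.8 and 17.2 CPM in the controls and 44.7 and 39.9 CPM at 24 h (log2 change 1.27 ± 0.10, adjusted p = 8.8e-06). These are known as genes of the G2 and M phases, and all rose more than 2-fold. ANAPC5, a core subunit of the complex, was at 151 and 150.3 CPM in the controls and 159 and 157 CPM at 24 h (log2 change 0.06 ± 0.06, adjusted p = 0.46). PTTG1, the securin that holds separase back, was at 74.3 and 82.4 CPM in the controls and 82.4 and 77.3 CPM at 24 h (log2 change 0.03 ± 0.07, adjusted p = 0.83), with overlapping groups. Among condensin and topoisomerase genes, TOP2B, the form of topoisomerase II that resting cells also make, was at 172 and 185 CPM in the controls and 165 and 173 CPM at 24 h (log2 change -0.08 ± 0.09, adjusted p = 0.56).

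DNA replication genes were also mostly higher. Of 85 measured members on 4 lists, 55 were called higher and 1 lower (65.9%), with a median of 0.45, and without each library in turn it was 43, 46, 43 and 44 higher. Of 21 genes that license and fire origins, 18 were called higher. CDC6, a loader of the MCM helicase, stood at 39.1 and 40.9 CPM in the controls and 79 and 78.7 CPM at 24 h (log2 change 0.98 ± 0.10, adjusted p = 5.2e-05). CDC45, which turns that helicase on, stood at 20.8 and 17.6 CPM in the controls and 51.2 and 48.8 CPM at 24 h (log2 change 1.38 ± 0.15, adjusted p = 0.00011). RECQL4, another firing factor, stood at 17.1 and 20.3 CPM in the controls and 43.9 and 41.2 CPM at 24 h (log2 change 1.19 ± 0.13, adjusted p = 9.6e-05). All 3 had both 24 h libraries above both controls. ORC2, a subunit of the origin complex, was at 24.6 and 29.2 CPM in the controls and 24.4 and 24.6 CPM at 24 h (log2 change -0.13 ± 0.10, adjusted p = 0.38). GINS3 stood at 12.4 and 13 CPM in the controls and 10.8 and 11.5 CPM at 24 h (log2 change -0.19 ± 0.14, adjusted p = 0.38).

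Of 28 polymerase and fork genes 24 were called higher. PCNA, the sliding clamp, stood at 43.5 and 45.1 CPM in the controls and 82.2 and 84.9 CPM at 24 h (log2 change 0.92 ± 0.07, adjusted p = 1.0e-05). WDHD1, which ties polymerase alpha to the helicase, stood at 29.2 and 32.4 CPM in the controls and 60.4 and 66.4 CPM at 24 h (log2 change 1.04 ± 0.09, adjusted p = 1.4e-05). ASF1B, a histone chaperone at the fork, stood at 30.7 and 33.5 CPM in the controls and 65.6 and 65.7 CPM at 24 h (log2 change 1.03 ± 0.09, adjusted p = 2.8e-05). PCNA rose 1.89-fold, and none of the 3 overlapped with its controls. Of the polymerases, POLE was at 41.5 and 42 CPM in the controls and 67.4 and 76.3 CPM at 24 h (log2 change 0.78 ± 0.08, adjusted p = 5.4e-05), while POLA1 and POLD2 were not called, with log2 changes of 0.10 ± 0.08 and -0.07 ± 0.08 and adjusted p-values of 0.39 and 0.60.

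Of 23 measured genes of nucleotide supply, edgeR called 13 higher and none lower, with 1 lower at an unadjusted p under 0.05 and 1 called lower by DESeq2 and by limma-voom. RRM2, the small subunit of ribonucleotide reductase, had the smallest p of any gene, at 89.4 and 82.5 CPM in the controls and 369 and 377 CPM at 24 h (log2 change 2.12 ± 0.07, adjusted p = 7.0e-08). TK1, thymidine kinase, stood at 73.1 and 73.5 CPM in the controls and 165 and 162 CPM at 24 h (log2 change 1.16 ± 0.09, adjusted p = 1.1e-05). TYMS, thymidylate synthase, stood at 17.8 and 18.3 CPM in the controls and 40.6 and 41 CPM at 24 h (log2 change 1.18 ± 0.09, adjusted p = 8.1e-06). RRM2 rose 4.34-fold, TK1 2.23-fold and TYMS 2.26-fold, again without overlap. IMPDH2 and GART, enzymes of purine synthesis, were not called. IMPDH2 was at 358 and 348 CPM in the controls and 311 and 301 CPM at 24 h (log2 change -0.21 ± 0.07, adjusted p = 0.057). GART stood at 121 and 117 CPM in the controls and 123 and 128 CPM at 24 h (log2 change 0.08 ± 0.06, adjusted p = 0.40).

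Replication histones were not among the rises. Of 22 listed, 13 were measured, none was called higher by edgeR and 1 was called lower, with a median of -0.45, and at an unadjusted p under 0.05 there were 0 higher and 3 lower. HIST2H2BE stood at 9.09 and 8.28 CPM in the controls and 5.67 and 5.7 CPM at 24 h (log2 change -0.61 ± 0.15, adjusted p = 0.014), and lost its call in other settings. HIST1H1C was at 15.7 and 12.7 CPM in the controls and 10.6 and 10.9 CPM at 24 h (log2 change -0.40 ± 0.14, adjusted p = 0.068) and HIST1H2BK at 13.1 and 10.8 CPM in the controls and 12.1 and 11.4 CPM at 24 h (log2 change -0.02 ± 0.13, adjusted p = 0.92). All 13 changes were below 0. Most histone messages lack a poly(A) tail and near-identical copies can share reads, so these values are uncertain.

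Most of the repair genes called higher belonged to recombination. Of 26 Fanconi anaemia and homologous recombination genes, 21 were called higher and none lower, with a median of 0.88. In mismatch, excision and end-joining repair 8 of 28 were higher and 1 lower, with a median of 0.15, and in checkpoint signalling 8 of 13 were higher. In fits without each library in turn the 8 checkpoint genes became 4, 5, 4 and 3, the 8 excision genes 4, 4, 3 and 4, and the 21 recombination genes 16, 17, 18 and 16. Over the 3 lists, 37 were called higher and these exclusions left 24, 26, 25 and 23.

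EXO1, a nuclease that resects breaks, stood at 8.84 and 8.46 CPM in the controls and 24.2 and 24.1 CPM at 24 h (log2 change 1.48 ± 0.13, adjusted p = 2.7e-05). RAD54L, a motor that drives strand exchange, stood at 13 and 13.1 CPM in the controls and 29.6 and 30.2 CPM at 24 h (log2 change 1.20 ± 0.10, adjusted p = 1.9e-05). RAD51AP1, an accessory factor of strand exchange, stood at 15 and 13.3 CPM in the controls and 32.3 and 31.4 CPM at 24 h (log2 change 1.18 ± 0.10, adjusted p = 2.7e-05). All rose more than 2-fold with no overlap. NEIL3, a glycosylase that is made in dividing cells, had the largest rise of the repair genes, at 8.67 and 9.2 CPM in the controls and 28.4 and 26.8 CPM at 24 h (log2 change 1.63 ± 0.11, adjusted p = 5.2e-06). PARP1, which marks strand breaks, was at 150.1 and 149 CPM in the controls and 192 and 189.8 CPM at 24 h (log2 change 0.35 ± 0.06, adjusted p = 0.0017). ERCC2, the XPD helicase of excision repair, was the 1 repair gene called lower, at 65.2 and 56.5 CPM in the controls and 42.7 and 38.8 CPM at 24 h (log2 change -0.58 ± 0.10, adjusted p = 0.0017). Of the checkpoint genes, TOPBP1, which activates ATR, stood at 62.3 and 67.7 CPM in the controls and 102 and 106 CPM at 24 h (log2 change 0.68 ± 0.07, adjusted p = 8.5e-05). CHEK1, the kinase below it, stood at 14.6 and 16 CPM in the controls and 25.8 and 24.8 CPM at 24 h (log2 change 0.73 ± 0.11, adjusted p = 0.0012). H2AFX, the histone that marks breaks, stood at 17.9 and 17.3 CPM in the controls and 35.9 and 34.3 CPM at 24 h (log2 change 0.99 ± 0.12, adjusted p = 0.00024). ATR itself was at 47.2 and 51.1 CPM in the controls and 52.4 and 56.9 CPM at 24 h (log2 change 0.15 ± 0.10, adjusted p = 0.31). DDB1 stood at 425 and 446 CPM in the controls and 415 and 414 CPM at 24 h (log2 change -0.07 ± 0.06, adjusted p = 0.41).

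Targets of p53 rose in part. Over all tested genes 22.3% were called, 12.9% higher and 9.39% lower. Of 65 measured genes on 4 lists, 22 were called higher and 1 lower (35.4%), and without each library in turn it was 15, 19, 19 and 15 higher. In arrest and feedback 11 of 20 were higher and none lower, with a median of 0.45. Among apoptosis genes 6 of 17 were higher and 1 lower, falling to 2, 3, 4 and 2 higher without each library in turn. Of targets in metabolism and secretion 5 of 18 were higher, and of the BCL2 family none of 14 was higher by edgeR and 1 was lower (1 and 2 at an unadjusted p under 0.05).

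CDKN1A, the p21 inhibitor of cyclin-dependent kinases, stood at 226 and 219.9 CPM in the controls and 342 and 348 CPM at 24 h (log2 change 0.63 ± 0.07, adjusted p = 7.0e-05). PLK3, a stress-activated kinase, stood at 21.2 and 19.3 CPM in the controls and 32 and 31.6 CPM at 24 h (log2 change 0.65 ± 0.09, adjusted p = 0.00047). POLH, a polymerase that copies damaged DNA, stood at 21.6 and 25.4 CPM in the controls and 41 and 41.3 CPM at 24 h (log2 change 0.81 ± 0.10, adjusted p = 0.00021). RRM2B, a p53-driven subunit of ribonucleotide reductase, stood at 105 and 112 CPM in the controls and 145 and 156 CPM at 24 h (log2 change 0.47 ± 0.07, adjusted p = 0.0011). The rises lay between 1.39 and 1.75-fold, and the groups did not overlap in any of these genes. MDM2, a feedback target, was also called higher but lost its call in other settings. Its log2 change was 0.58 without control 1, 0.72 without control 2 and 0.55 without 24 h 2. CCNG1 and ZMAT3, the arrest targets of highest CPM not called, had log2 changes of 0.11 ± 0.06 and 0.13 ± 0.13, with adjusted p-values of 0.21 and 0.55.

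TP53I3, a quinone reductase induced before cell death, stood at 2.38 and 2.73 CPM in the controls and 5.75 and 5.64 CPM at 24 h (log2 change 1.15 ± 0.19, adjusted p = 0.0016). PHLDA3, an inhibitor of AKT, stood at 128 and 122 CPM in the controls and 164 and 160.2 CPM at 24 h (log2 change 0.37 ± 0.07, adjusted p = 0.0030). The death receptor TNFRSF10B, a p53 target of high level, was at 236 and 235 CPM in the controls and 249.9 and 254 CPM at 24 h (log2 change 0.10 ± 0.08, adjusted p = 0.42). Its values were close in all 4 libraries. PMAIP1, the BH3-only protein NOXA, was the 1 gene called lower, at 33.3 and 28.7 CPM in the controls and 25.3 and 25.4 CPM at 24 h (log2 change -0.29 ± 0.09, adjusted p = 0.042), and lost its call in other settings. MCL1 and BCL2L1, which protect cells from apoptosis, were not called, at 319 and 319 CPM in the controls and 363 and 364 CPM at 24 h (log2 change 0.19 ± 0.09, adjusted p = 0.15) and 236 and 238 CPM in the controls and 222 and 228 CPM at 24 h (log2 change -0.08 ± 0.06, adjusted p = 0.35). EPHA2, an ephrin receptor, stood at 49 and 48.6 CPM in the controls and 96.4 and 104 CPM at 24 h (log2 change 1.04 ± 0.08, adjusted p = 8.1e-06). THBS1, the matrix protein thrombospondin 1, stood at 25.6 and 28.6 CPM in the controls and 55.7 and 60 CPM at 24 h (log2 change 1.09 ± 0.08, adjusted p = 1.0e-05). Both were above control in both libraries. THBS1 had been higher still at 4 h, with 152 and 142 CPM (24 h minus 4 h log2 difference -1.34 ± 0.08, adjusted p = 3.8e-07), whereas EPHA2 had 67.1 and 61.1 CPM there.

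**Figure D3:**
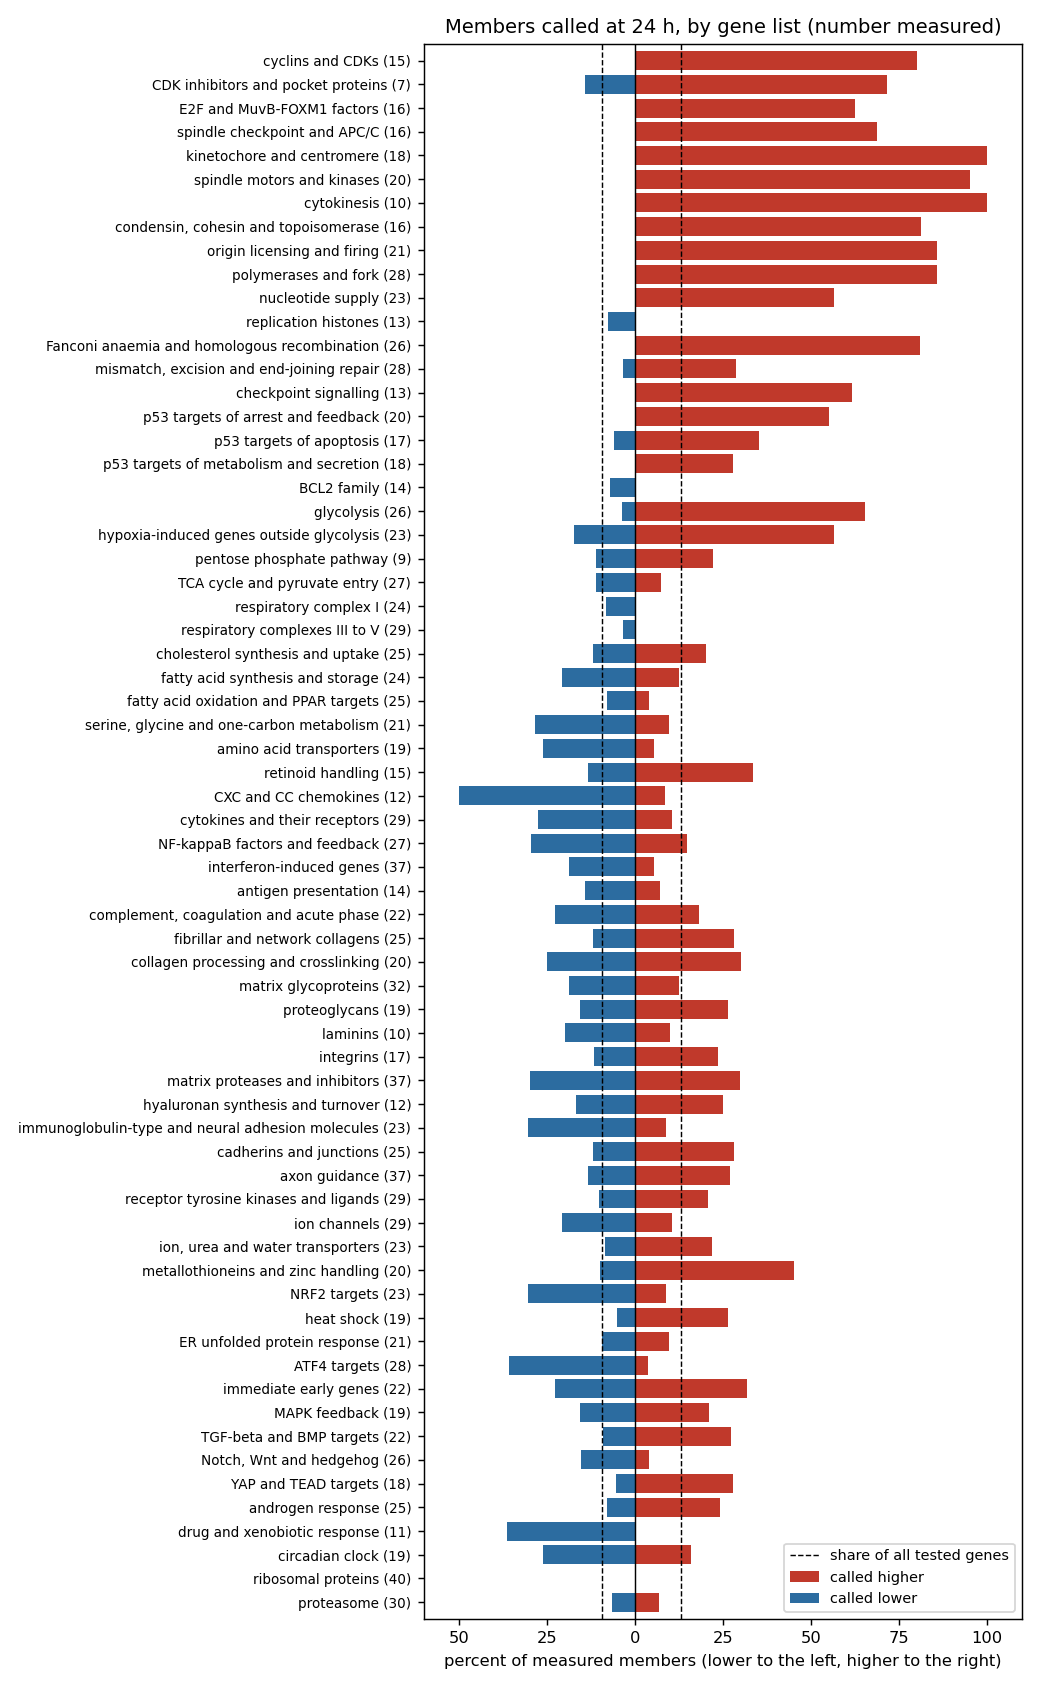
Bars give the percent of measured members of each list that were called higher (red, to the right) or lower (blue, to the left) at 24 h against control, with the number measured in brackets. Dashed lines mark the shares over all tested genes, 12.9% higher and 9.39% lower. The cell cycle, replication, recombination and glycolysis lists reach far to the right and the chemokines farthest to the left, while no ribosomal protein gene was called.

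Metabolic genes moved both ways, with 50 called higher and 35 lower of 266 measured (32%, against 22.3% of all genes). With library totals the split was 41 and 50, and without each library in turn it was 30, 31, 30 and 28 higher and 20, 25, 19 and 20 lower. In glycolysis 17 of 26 genes were called higher and 1 lower, 13, 11, 12 and 11 higher without each library in turn and 15 with library totals. ENO2, the neuronal form of enolase, stood at 298 and 289 CPM in the controls and 512 and 517 CPM at 24 h (log2 change 0.81 ± 0.07, adjusted p = 1.2e-05). PGAM1, phosphoglycerate mutase, stood at 217 and 209.7 CPM in the controls and 335 and 339.9 CPM at 24 h (log2 change 0.66 ± 0.06, adjusted p = 4.7e-05). LDHA, which makes lactate, stood at 1060.5 and 1031 CPM in the controls and 1934 and 1887 CPM at 24 h (log2 change 0.87 ± 0.06, adjusted p = 4.7e-06), a 1.83-fold rise. Its partner LDHB was at 650.0 and 622 CPM in the controls and 652 and 631 CPM at 24 h (log2 change 0.01 ± 0.06, adjusted p = 0.91). HK2, an inducible hexokinase, was the 1 member called lower (log2 change -0.36 ± 0.06, adjusted p = 0.0027). The lactate carrier SLC16A1 was at 179 and 175 CPM in the controls and 160.0 and 173 CPM at 24 h (log2 change -0.09 ± 0.06, adjusted p = 0.36).

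Of 23 other genes tied to hypoxia, among them the hypoxia factors HIF1A and EPAS1, 13 were called higher and 4 lower. EPAS1 was among the 13 and lost its call in other settings. The 13 became 6, 8, 8 and 5 and the 4 became 2, 3, 2 and 2 without each library in turn, and with library totals 9 were higher. CA9, a carbonic anhydrase of the cell surface, stood at 155 and 167 CPM in the controls and 264 and 269.5 CPM at 24 h (log2 change 0.73 ± 0.10, adjusted p = 0.00046). BNIP3L, a mitophagy receptor, stood at 189 and 178 CPM in the controls and 236 and 248 CPM at 24 h (log2 change 0.40 ± 0.06, adjusted p = 0.00089). BHLHE40, a repressor that also belongs to the clock, stood at 124 and 130.3 CPM in the controls and 189 and 188 CPM at 24 h (log2 change 0.57 ± 0.08, adjusted p = 0.00047). ADM, the vasoactive peptide adrenomedullin, went the other way in both libraries, at 157 and 154 CPM in the controls and 79.2 and 75.3 CPM at 24 h (log2 change -1.01 ± 0.08, adjusted p = 1.0e-05). ANKRD37, STC2 and MXI1 were the other members called lower, with log2 changes of -0.96, -0.53 and -0.26, of which ANKRD37 and MXI1 lost their calls in other settings. VEGFA and CA12, the members of highest CPM not called, were at 550.3 and 504 CPM in the controls and 595 and 561 CPM at 24 h (log2 change 0.13 ± 0.06, adjusted p = 0.16) and 729.7 and 689 CPM in the controls and 694 and 713 CPM at 24 h (log2 change -0.01 ± 0.06, adjusted p = 0.91). VEGFA had been at 1614 and 1563 CPM at 4 h, so it fell from there to 24 h (log2 difference -1.46 ± 0.07, adjusted p = 4.5e-08).

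Genes of the respiratory complexes were seldom called, 8.33% in complex I and 3.45% in complexes III to V against 22.3% of all genes. The citric acid cycle, with 18.5% called, lay nearer to that share. By edgeR, complex I had 0 higher and 2 lower of 24 and complexes III to V 0 higher and 1 lower of 29 (0 and 5, and 0 and 3, at an unadjusted p under 0.05), and the citric acid cycle 2 higher and 3 lower of 27 (18.5% called). SUCLG2, a subunit of succinate-CoA ligase, stood at 127 and 129 CPM in the controls and 92.5 and 91.1 CPM at 24 h (log2 change -0.48 ± 0.06, adjusted p = 0.00020). ACO1, the cytosolic aconitase and iron sensor, stood at 227 and 236 CPM in the controls and 185 and 183 CPM at 24 h (log2 change -0.33 ± 0.06, adjusted p = 0.0020). Both were lower in both libraries. OGDH, IDH1 and IDH2, with log2 changes of -0.27, 0.33 and 0.37, and NDUFA10 and UQCRFS1, with -0.30 and -0.27, were among the others called, and each lost its call in at least 1 setting. ATP5B, a subunit of the ATP synthase, was at 932 and 894 CPM in the controls and 874 and 862 CPM at 24 h (log2 change -0.07 ± 0.06, adjusted p = 0.42).

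Lipid lists were mixed. In cholesterol synthesis and uptake 5 of 25 were called higher and 3 lower, a majority that library totals turned to 3 and 4. The 5 rises became 2, 2, 1 and 3 without each library in turn. INSIG1, which holds the sterol regulator SREBP in the ER, stood at 300.4 and 288 CPM in the controls and 233 and 211 CPM at 24 h (log2 change -0.40 ± 0.07, adjusted p = 0.0017). SREBF2, the regulator of the pathway, was at 109 and 101 CPM in the controls and 112 and 110.3 CPM at 24 h (log2 change 0.08 ± 0.06, adjusted p = 0.41). Also called were EBP, ACAT2, FDPS and PMVK, with log2 changes of 0.50, 0.56, 0.31 and 0.30, and LSS and ABCA1, with -0.37 and -0.49. These 6 lost their calls in other settings. In fatty acid synthesis and storage 3 of 24 were higher and 5 lower, but 7 higher and 5 lower in a fit without the 48 h libraries, and 2, 2, 2 and 2 higher and 2, 3, 2 and 2 lower without each library in turn. FADS1, a desaturase, stood at 92.5 and 89.3 CPM in the controls and 139 and 136 CPM at 24 h (log2 change 0.60 ± 0.07, adjusted p = 0.00014). ACLY, which makes cytosolic acetyl-CoA, stood at 448 and 455 CPM in the controls and 565 and 564 CPM at 24 h (log2 change 0.32 ± 0.05, adjusted p = 0.0017). SREBF1, the regulator of the pathway, stood at 96.5 and 85.9 CPM in the controls and 64.7 and 61.8 CPM at 24 h (log2 change -0.53 ± 0.09, adjusted p = 0.0014). FADS1 was thus above, and SREBF1 below, both controls.

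Of 21 genes of serine, glycine and one-carbon metabolism, 2 were called higher and 6 lower. MAT2A, which makes S-adenosylmethionine, the methyl donor of the cell, stood at 124 and 126 CPM in the controls and 45.6 and 42.3 CPM at 24 h (log2 change -1.50 ± 0.12, adjusted p = 1.1e-05). CBS, which diverts homocysteine to cysteine, stood at 20.9 and 16.3 CPM in the controls and 8.85 and 9.51 CPM at 24 h (log2 change -1.02 ± 0.13, adjusted p = 0.00032). ASNS, asparagine synthetase, stood at 229 and 195 CPM in the controls and 140.0 and 154 CPM at 24 h (log2 change -0.53 ± 0.10, adjusted p = 0.0026). ALDH1L2, a mitochondrial folate enzyme, was at 61.5 and 62 CPM in the controls and 42.1 and 44 CPM at 24 h (log2 change -0.52 ± 0.08, adjusted p = 0.00077). In all 4 the controls lay above the 24 h libraries. SHMT1, the cytosolic serine hydroxymethyltransferase that feeds thymidylate synthesis, rose instead, at 18.3 and 18.1 CPM in the controls and 31.3 and 28.9 CPM at 24 h (log2 change 0.73 ± 0.10, adjusted p = 0.00047), and the other rise, MTHFD1 (log2 change 0.31 ± 0.06), lost its call in other settings. PHGDH, the first enzyme of serine synthesis, was at 372 and 310.1 CPM in the controls and 298 and 297 CPM at 24 h (log2 change -0.20 ± 0.09, adjusted p = 0.14). Of 19 amino acid transporters 1 was higher and 5 lower, the 5 becoming 2, 3, 1 and 2 without each library in turn. SLC1A3, a glutamate carrier, stood at 22.8 and 24.8 CPM in the controls and 15.2 and 16.3 CPM at 24 h (log2 change -0.59 ± 0.10, adjusted p = 0.0023).

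Retinoid handling gave one of the largest single changes. STRA6, the membrane receptor that takes up retinol, stood at 1.67 and 1.52 CPM in the controls and 17.8 and 19.3 CPM at 24 h (log2 change 3.53 ± 0.18, adjusted p = 1.2e-06). CYP26B1, which degrades retinoic acid, stood at 38.1 and 37.1 CPM in the controls and 78.7 and 78.1 CPM at 24 h (log2 change 1.06 ± 0.10, adjusted p = 4.8e-05). DHRS3, which turns retinal back to retinol, stood at 64.9 and 53.2 CPM in the controls and 117 and 113 CPM at 24 h (log2 change 0.96 ± 0.10, adjusted p = 5.8e-05). All 3 rose in both libraries, STRA6 from a low level. ALDH1A3, the enzyme that makes retinoic acid and the member of highest CPM, fell, at 3067 and 2859 CPM in the controls and 2118 and 1994 CPM at 24 h (log2 change -0.53 ± 0.06, adjusted p = 0.00011). Of 15 measured, 5 were higher and 2 lower, the 5 becoming 4, 4, 3 and 4 without each library in turn. The others called were CRABP2, RARG and RARA, with log2 changes of 0.43, 0.40 and -0.44, and the 3 lost their calls in other settings. RXRA was at 41.5 and 40.9 CPM in the controls and 35.7 and 38.4 CPM at 24 h (log2 change -0.15 ± 0.08, adjusted p = 0.18). Between 4 and 24 h STRA6 rose further (log2 difference 2.07 ± 0.16, adjusted p = 2.4e-06), while CYP26B1 fell back (-0.32 ± 0.10, adjusted p = 0.026).

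Inflammatory genes fell more often than they rose, 36 lower and 15 higher of 141 measured (36.2%, against 22.3% of all genes). Without each library in turn there were 19, 26, 17 and 20 lower and 11, 9, 10 and 10 higher, and library totals gave 41 lower. Of 12 measured chemokines 6 were called lower and 1 higher. CCL2, which draws monocytes, stood at 18.5 and 17.4 CPM in the controls and 11.4 and 10.4 CPM at 24 h (log2 change -0.72 ± 0.11, adjusted p = 0.0012). CXCL5, which draws neutrophils, stood at 58 and 52.2 CPM in the controls and 38.9 and 39.6 CPM at 24 h (log2 change -0.49 ± 0.09, adjusted p = 0.0026). CXCL3, of the same neutrophil-attracting family, stood at 69.6 and 59.7 CPM in the controls and 31.2 and 30.7 CPM at 24 h (log2 change -1.06 ± 0.09, adjusted p = 2.4e-05). The 3 were lower in both 24 h libraries. IL8, the chemokine of highest CPM, was at 2123 and 1885 CPM in the controls and 1885 and 1807 CPM at 24 h (log2 change -0.12 ± 0.09, adjusted p = 0.41). CCL20 stood at 7.99 and 5.32 CPM in the controls and 9.37 and 9.16 CPM at 24 h (log2 change 0.48 ± 0.18, adjusted p = 0.084). Neither was called. CCL26 was the 1 chemokine called higher, at 0.963 and 0.748 CPM in the controls and 1.29 and 2.23 CPM at 24 h (log2 change 1.03 ± 0.31, adjusted p = 0.035), and it lost its call in other settings.

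Cytokines and their receptors were 3 higher and 8 lower of 29, the 8 becoming 5, 7, 5 and 5 without each library in turn. IL6, a cytokine of the acute phase, stood at 187 and 145 CPM in the controls and 97.2 and 95.1 CPM at 24 h (log2 change -0.79 ± 0.12, adjusted p = 0.00081). IL1R1, the receptor through which IL1 signals, stood at 70.6 and 67.8 CPM in the controls and 39.7 and 42.6 CPM at 24 h (log2 change -0.75 ± 0.07, adjusted p = 3.8e-05). CSF1, the growth factor of macrophages, stood at 124 and 121 CPM in the controls and 89.6 and 95.1 CPM at 24 h (log2 change -0.41 ± 0.07, adjusted p = 0.0022). In these the 24 h libraries lay below both controls. LIF, which signals through the same gp130 chain as IL6, rose instead, at 499 and 443 CPM in the controls and 764 and 699.5 CPM at 24 h (log2 change 0.64 ± 0.07, adjusted p = 0.00017), as did IL33, an alarmin, at 8.36 and 7.74 CPM in the controls and 17.3 and 14.7 CPM at 24 h (log2 change 0.99 ± 0.16, adjusted p = 0.0012). The other rise, CSF2 (log2 change 0.51 ± 0.16), lost its call in other settings. IL1B and CSF3, the members of highest CPM, were at 2599 and 2202 CPM in the controls and 3096 and 2726 CPM at 24 h (log2 change 0.28 ± 0.13, adjusted p = 0.16) and 1778 and 1479 CPM in the controls and 1619 and 1509 CPM at 24 h (log2 change -0.06 ± 0.08, adjusted p = 0.68), neither of them called. The 24 h values of IL1B were above its controls and those of CSF3 overlapped with them.

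Of 27 NF-kappaB factors and feedback genes, 8 were lower and 4 higher, and the 8 became 4, 4, 3 and 3 without each library in turn. NFKB1, the p50 subunit, stood at 91.6 and 90.8 CPM in the controls and 65.4 and 64.7 CPM at 24 h (log2 change -0.49 ± 0.08, adjusted p = 0.0013). TNFAIP2, a target of the pathway, stood at 39.7 and 39.7 CPM in the controls and 24.5 and 25.4 CPM at 24 h (log2 change -0.67 ± 0.08, adjusted p = 0.00027). BIRC2, an inhibitor of apoptosis that acts in the same pathway, was higher, at 54.2 and 54.8 CPM in the controls and 78.1 and 77.8 CPM at 24 h (log2 change 0.52 ± 0.08, adjusted p = 0.0014), and so was PTGES, which makes prostaglandin E2, at 638 and 564 CPM in the controls and 869 and 831 CPM at 24 h (log2 change 0.50 ± 0.07, adjusted p = 0.00043). None of the 4 overlapped with its controls. The other rises were BIRC3 and IRAK2, with log2 changes of 0.49 and 0.27, and both lost their calls in other settings. PTGS2, the enzyme upstream of PTGES, was at 345 and 313 CPM in the controls and 323 and 304 CPM at 24 h (log2 change -0.07 ± 0.08, adjusted p = 0.62). IER3 stood at 168 and 158 CPM in the controls and 169 and 160.3 CPM at 24 h (log2 change 0.01 ± 0.10, adjusted p = 0.95).

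Interferon-induced genes were 2 higher and 7 lower of 37 (24.3% called, against 22.3% of all genes), and the 7 became 2, 3, 2 and 3 without each library in turn. GBP2, a guanylate-binding protein, stood at 21.9 and 20.2 CPM in the controls and 12.5 and 13.3 CPM at 24 h (log2 change -0.70 ± 0.11, adjusted p = 0.0012). SAMD9 and OAS3, both antiviral factors, were the 2 called higher, at 17.2 and 19.2 CPM in the controls and 28.7 and 34.8 CPM at 24 h (log2 change 0.80 ± 0.13, adjusted p = 0.0013) and 15.6 and 16.8 CPM in the controls and 25.9 and 30.5 CPM at 24 h (log2 change 0.80 ± 0.14, adjusted p = 0.0021). In antigen presentation TAP1, the peptide transporter, stood at 38.1 and 40.4 CPM in the controls and 55.8 and 56.1 CPM at 24 h (log2 change 0.51 ± 0.08, adjusted p = 0.0010). B2M, the light chain of class I molecules, stood at 2294 and 2192 CPM in the controls and 2160.3 and 2168 CPM at 24 h (log2 change -0.05 ± 0.06, adjusted p = 0.61). Of the complement and acute phase list, 4 of 22 were higher and 5 lower, and 3, 1, 1 and 3 were higher and 3, 5, 3 and 4 lower without each library in turn. PTX3, the pentraxin that opsonises microbes, stood at 159.5 and 165 CPM in the controls and 66.3 and 70.9 CPM at 24 h (log2 change -1.24 ± 0.06, adjusted p = 1.2e-06). CFB, complement factor B, stood at 31.1 and 32 CPM in the controls and 21.7 and 21.7 CPM at 24 h (log2 change -0.54 ± 0.09, adjusted p = 0.0020). Both had the 24 h libraries under the controls. TFPI2 and CD59 were not called, with log2 changes of 0.15 ± 0.07 and -0.01 ± 0.07 and adjusted p-values of 0.17 and 0.93.

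Matrix genes were 41 higher and 34 lower of 172 measured (43.6%, against 22.3% of all genes), which library totals turned to 37 and 39. Without each library in turn there were 29, 31, 28 and 30 higher and 15, 18, 14 and 14 lower. Of 25 collagens, 7 were called higher and 3 lower, the 7 becoming 4, 5, 4 and 6 without each library in turn. COL15A1, a collagen of basement membrane zones, stood at 18.8 and 20.4 CPM in the controls and 44.3 and 46 CPM at 24 h (log2 change 1.20 ± 0.09, adjusted p = 9.4e-06). COL7A1, which anchors epithelia, stood at 119.9 and 127 CPM in the controls and 216 and 213 CPM at 24 h (log2 change 0.80 ± 0.10, adjusted p = 0.00019). COL5A1, which starts fibrils of type I collagen, stood at 146 and 152 CPM in the controls and 218 and 210.5 CPM at 24 h (log2 change 0.52 ± 0.07, adjusted p = 0.00025). They rose 2.3, 1.74 and 1.44-fold, above both controls in both libraries. COL1A2, the second chain of type I collagen itself, fell, at 680.2 and 682 CPM in the controls and 398 and 384 CPM at 24 h (log2 change -0.80 ± 0.11, adjusted p = 0.00052). COL3A1 and COL8A1 were the others called lower, COL3A1 at under 1 CPM in every control and COL8A1 with a log2 change of -0.24, and both lost the call in other settings. COL6A3 and COL6A2 were those of highest CPM not called, with log2 changes of 0.40 ± 0.15 and 0.08 ± 0.08.

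Collagen processing was 6 higher and 5 lower of 20, turned to 5 and 7 by library totals, and 3, 4, 3 and 3 higher and 2, 2, 2 and 2 lower without each library in turn. PLOD2, a lysyl hydroxylase that sets the type of crosslink, stood at 398 and 421 CPM in the controls and 608 and 616 CPM at 24 h (log2 change 0.58 ± 0.06, adjusted p = 4.8e-05). TGM2, tissue transglutaminase, stood at 653 and 545 CPM in the controls and 1176 and 1069 CPM at 24 h (log2 change 0.91 ± 0.09, adjusted p = 5.2e-05). SERPINH1, the collagen chaperone HSP47, stood at 239 and 242 CPM in the controls and 157 and 159 CPM at 24 h (log2 change -0.61 ± 0.07, adjusted p = 8.8e-05). LOXL1, a lysyl oxidase of elastic fibres, stood at 197 and 189.5 CPM in the controls and 116 and 113 CPM at 24 h (log2 change -0.76 ± 0.09, adjusted p = 0.00017). PLOD2 and TGM2 were thus above both controls, and SERPINH1 and LOXL1 below. P4HB and LOXL2 were not called, with log2 changes of -0.14 ± 0.07 and -0.01 ± 0.06.

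Matrix glycoproteins were 4 higher and 6 lower of 32, the 6 becoming 4, 4, 3 and 4 without each library in turn. EFEMP1, a fibulin, stood at 46.6 and 45.1 CPM in the controls and 26.7 and 27.9 CPM at 24 h (log2 change -0.75 ± 0.07, adjusted p = 4.2e-05). MATN2, a matrilin, stood at 43.1 and 45.6 CPM in the controls and 29.4 and 29.9 CPM at 24 h (log2 change -0.58 ± 0.08, adjusted p = 0.00045). The thrombospondins moved apart, since THBS2 fell, at 115 and 115 CPM in the controls and 86.7 and 85 CPM at 24 h (log2 change -0.42 ± 0.07, adjusted p = 0.0021), while THBS1 rose as given above. FN1, fibronectin, was at 3633 and 4227 CPM in the controls and 4089 and 4168 CPM at 24 h (log2 change 0.07 ± 0.09, adjusted p = 0.64). CYR61, a matricellular protein, stood at 25.4 and 26.6 CPM in the controls and 35.9 and 36.6 CPM at 24 h (log2 change 0.48 ± 0.08, adjusted p = 0.0022), and CTGF and NID1 were the other rises, with log2 changes of 0.55 and 0.47, of which NID1 lost its call in other settings. Of 19 proteoglycans 5 were higher and 3 lower, the 3 becoming 1, 1, 2 and 2 without each library in turn. VCAN, the large proteoglycan versican, stood at 141 and 179 CPM in the controls and 242 and 261 CPM at 24 h (log2 change 0.65 ± 0.11, adjusted p = 0.0019). CSPG4, the NG2 proteoglycan of glioma and pericytes, stood at 96.3 and 104 CPM in the controls and 149.9 and 153 CPM at 24 h (log2 change 0.60 ± 0.11, adjusted p = 0.0026). LUM, lumican, stood at 13.3 and 15.3 CPM in the controls and 8.16 and 7.05 CPM at 24 h (log2 change -0.91 ± 0.15, adjusted p = 0.0015). VCAN and CSPG4 were higher and LUM lower in both libraries.

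Integrins are the paired chains by which cells hold the matrix. Of 17 integrins 4 were higher and 2 lower (35.3% called, against 22.3% of all genes). ITGA2, a collagen receptor, stood at 225 and 246 CPM in the controls and 366 and 394 CPM at 24 h (log2 change 0.69 ± 0.09, adjusted p = 0.00023). ITGA5, the fibronectin receptor, stood at 1028 and 1012 CPM in the controls and 1450.2 and 1415 CPM at 24 h (log2 change 0.49 ± 0.06, adjusted p = 0.00025). ITGB3, a beta chain that binds vitronectin, stood at 406 and 408 CPM in the controls and 612 and 625 CPM at 24 h (log2 change 0.60 ± 0.09, adjusted p = 0.00078). ITGA3, a laminin receptor, fell, at 1942 and 1906 CPM in the controls and 1549 and 1515 CPM at 24 h (log2 change -0.33 ± 0.05, adjusted p = 0.0012). ITGB1, the common beta chain, stood at 2056 and 2115 CPM in the controls and 2112 and 2047 CPM at 24 h (log2 change -0.00 ± 0.05, adjusted p = 0.97). ITGA2, ITGA5 and ITGB3 were between 1.4 and 1.61-fold above control, and the groups of ITGB1 overlapped. ITGA11 was also called higher (log2 change 0.46 ± 0.12). ITGB8 stood at 3.12 and 2.79 CPM in the controls and 1.55 and 1.76 CPM at 24 h (log2 change -0.84 ± 0.22, adjusted p = 0.019). Both lost their calls in other settings. Among 10 laminins, 1 was higher and 2 lower (30% called), and all 3 lost their calls in other settings. LAMC1, of the highest CPM among them, was at 909 and 953 CPM in the controls and 949 and 997 CPM at 24 h (log2 change 0.06 ± 0.10, adjusted p = 0.70).

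Matrix proteases and their inhibitors were 11 higher and 11 lower of 37. In fits without each library in turn the counts were 9, 7, 7 and 9 higher and 3, 5, 3 and 3 lower. PLAU, urokinase, stood at 213 and 203 CPM in the controls and 342 and 312 CPM at 24 h (log2 change 0.65 ± 0.09, adjusted p = 0.00042). MMP3, stromelysin, stood at 1247 and 1134 CPM in the controls and 1721 and 1584 CPM at 24 h (log2 change 0.47 ± 0.06, adjusted p = 0.00043). TIMP1, the inhibitor of such enzymes, stood at 1702 and 1495 CPM in the controls and 2754 and 2457 CPM at 24 h (log2 change 0.70 ± 0.11, adjusted p = 0.0010). Each was above both controls. CTSK, a collagen-degrading cathepsin, fell, at 167 and 153 CPM in the controls and 113 and 113 CPM at 24 h (log2 change -0.50 ± 0.07, adjusted p = 0.00039). CTSB and ADAMTS1 were not called, with log2 changes of -0.15 ± 0.06 and 0.08 ± 0.08.

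Hyaluronan genes differed between a synthase, a degrading protein and the receptors. HAS3, a hyaluronan synthase, stood at 30.6 and 30.1 CPM in the controls and 7.56 and 7.08 CPM at 24 h (log2 change -2.05 ± 0.16, adjusted p = 1.1e-05). KIAA1199, which binds and breaks down hyaluronan, stood at 19 and 19.2 CPM in the controls and 40.4 and 37.6 CPM at 24 h (log2 change 1.03 ± 0.09, adjusted p = 2.1e-05). CD44, the main receptor, stood at 1911 and 1879.6 CPM in the controls and 2559 and 2518 CPM at 24 h (log2 change 0.42 ± 0.06, adjusted p = 0.00046). HAS3 was 4.15-fold lower, and the degrader and the receptor were above both controls. HMMR, a hyaluronan receptor that also sits on the spindle, was at 32.1 and 35.2 CPM in the controls and 76.7 and 73.9 CPM at 24 h (log2 change 1.16 ± 0.08, adjusted p = 4.7e-06). HAS1, another synthase, was at 169 and 160.4 CPM in the controls and 225 and 195 CPM at 24 h (log2 change 0.35 ± 0.12, adjusted p = 0.066). In all, 3 of 12 were higher and 2 lower, the second being TNFAIP6, which lost its call in other settings.

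Membrane genes were 33 higher and 26 lower of 166 measured (35.5%, against 22.3% of all genes), which library totals turned to 28 and 31. Without each library in turn there were 16, 21, 22 and 18 higher and 15, 9, 11 and 13 lower. Adhesion molecules of the immunoglobulin and neural kinds were 2 higher and 7 lower of 23. LRRC32, which holds latent TGF-beta at the cell surface, stood at 21.2 and 23 CPM in the controls and 6.01 and 5.32 CPM at 24 h (log2 change -1.96 ± 0.15, adjusted p = 9.4e-06). LSAMP, a neural adhesion molecule, stood at 13.9 and 13.7 CPM in the controls and 4.33 and 3.55 CPM at 24 h (log2 change -1.80 ± 0.14, adjusted p = 1.1e-05). CADM1, another, stood at 16.5 and 17.7 CPM in the controls and 10.7 and 10.4 CPM at 24 h (log2 change -0.70 ± 0.14, adjusted p = 0.0047). LRRC32 was 3.9-fold and LSAMP 3.48-fold lower. NCAM1, the neural cell adhesion molecule, rose, at 26 and 25.3 CPM in the controls and 34 and 36.7 CPM at 24 h (log2 change 0.46 ± 0.09, adjusted p = 0.0031). In fits without each library in turn the 7 falls became 4, 3, 3 and 4.

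Of 25 cadherin and junction genes 7 were higher and 3 lower, the 7 becoming 4, 4, 5 and 4 without each library in turn. CDH2, N-cadherin, stood at 80.7 and 78.7 CPM in the controls and 101 and 103 CPM at 24 h (log2 change 0.36 ± 0.06, adjusted p = 0.0026). TJP1, a scaffold of tight junctions, stood at 126 and 134 CPM in the controls and 177 and 191 CPM at 24 h (log2 change 0.50 ± 0.06, adjusted p = 0.00029). GJB2, connexin 26, stood at 16.3 and 14.5 CPM in the controls and 24.8 and 23.3 CPM at 24 h (log2 change 0.64 ± 0.10, adjusted p = 0.0014). PCDH10, a protocadherin, rose from a low level, at 1.22 and 1.18 CPM in the controls and 3.75 and 3.88 CPM at 24 h (log2 change 1.67 ± 0.21, adjusted p = 0.00026). All 4 had both 24 h libraries above both controls. PCDH18, PCDH9 and GJA1 were called lower, with log2 changes of -0.97, -0.50 and -0.20, and all 3 lost their calls in other settings, GJA1 without any 1 of the 4 libraries compared. CDH13, the cadherin of highest CPM, was at 733 and 709 CPM in the controls and 776 and 747 CPM at 24 h (log2 change 0.08 ± 0.06, adjusted p = 0.36).

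Of 37 axon guidance genes 10 were higher and 5 lower. The receptors PLXNA2 and PLXNB2, which bind semaphorins, stood at 34.3 and 34.5 CPM in the controls and 79.6 and 88.2 CPM at 24 h (log2 change 1.29 ± 0.08, adjusted p = 4.7e-06) and 233 and 225 CPM in the controls and 319 and 344 CPM at 24 h (log2 change 0.53 ± 0.06, adjusted p = 0.00017). The ligands SLIT2 and SLIT3, which repel growing axons through ROBO receptors, stood at 9.24 and 9.87 CPM in the controls and 4.44 and 3.79 CPM at 24 h (log2 change -1.21 ± 0.19, adjusted p = 0.0011) and 47.4 and 42.9 CPM in the controls and 26.8 and 31.7 CPM at 24 h (log2 change -0.63 ± 0.09, adjusted p = 0.00078). The plexins were higher and the slits lower in both libraries. The other falls were SEMA3C and the receptor DCC, with log2 changes of -0.26 and -0.49, and NTN1, which was under 1 CPM in every control. These 3 lost their calls in other settings. NRP1 and SEMA7A were not called, with log2 changes of 0.13 ± 0.06 and 0.16 ± 0.06. In fits without each library in turn the counts were 8, 6, 7 and 7 higher and 3, 2, 2 and 2 lower.

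Receptor tyrosine kinases and their ligands were 6 higher and 3 lower of 29, the 6 becoming 1, 4, 3 and 3 without each library in turn. TGFA, a ligand of EGFR, stood at 106 and 101 CPM in the controls and 132 and 141 CPM at 24 h (log2 change 0.40 ± 0.06, adjusted p = 0.0014). EGFR itself stood at 149 and 166 CPM in the controls and 147 and 161 CPM at 24 h (log2 change -0.03 ± 0.09, adjusted p = 0.84). Both 24 h values of TGFA were above the controls, whereas those of EGFR overlapped with them. EREG, another ligand, was at 916 and 924 CPM in the controls and 896 and 894 CPM at 24 h (log2 change -0.04 ± 0.06, adjusted p = 0.68). PDGFRA (log2 change 0.57 ± 0.16), AXL, MET, FGF5 and TEK were called but lost their calls in other settings. KDR, PDGFA and GAS6 were called lower, with log2 changes of -0.56, -0.37 and -0.32, and all 3 lost their calls in other settings, KDR without any 1 of the 4 libraries compared.

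Channels and carriers were also mixed. Of 29 ion channels 3 were higher and 6 lower, the 6 becoming 3, 3, 3 and 5 without each library in turn. KCNMA1, the large calcium-activated potassium channel, stood at 240.1 and 236 CPM in the controls and 169.6 and 175 CPM at 24 h (log2 change -0.47 ± 0.06, adjusted p = 0.00021). KCNE4, a subunit that inhibits potassium channels, stood at 7.11 and 6.59 CPM in the controls and 2.55 and 2.32 CPM at 24 h (log2 change -1.49 ± 0.22, adjusted p = 0.00086). TRPV2, a cation channel, stood at 12.2 and 11.1 CPM in the controls and 7.04 and 5.55 CPM at 24 h (log2 change -0.88 ± 0.14, adjusted p = 0.0014). All 3 fell in both libraries. ANO6 and KCNN4 were among the rises, with log2 changes of 0.21 and 0.43, and both lost their calls in other settings. Of 23 carriers of ions, urea and water 5 were higher and 2 lower. SLC20A1, a phosphate importer, stood at 448 and 450.1 CPM in the controls and 853 and 807 CPM at 24 h (log2 change 0.89 ± 0.06, adjusted p = 5.6e-06). SLC14A1, a urea transporter, stood at 8.36 and 8.6 CPM in the controls and 2.36 and 2.08 CPM at 24 h (log2 change -1.93 ± 0.19, adjusted p = 5.0e-05). SLC8A1 and SLC12A4 were also higher (0.93 and 0.28), and both lost the call in other settings. Without control 1 the 5 rises became 1, and without 24 h 2 they became 2.

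Stress genes were 19 higher and 22 lower of 110 measured (37.3%, against 22.3% of all genes), and 12 and 32 with library totals. Without each library in turn there were 10, 7, 9 and 8 higher and 14, 23, 14 and 14 lower. Metallothioneins are small proteins that bind zinc and copper. MT1G stood at 0.368 and 0.92 CPM in the controls and 31.6 and 48.4 CPM at 24 h (log2 change 5.95 ± 0.33, adjusted p = 1.7e-06), its controls resting on 13 and 32 counts. MT1F stood at 8.87 and 7.59 CPM in the controls and 30.8 and 38.5 CPM at 24 h (log2 change 2.07 ± 0.15, adjusted p = 7.6e-06). Both were lower than at 4 h, where they had 104 and 80.7 and 80.1 and 64.2 CPM (log2 difference -1.20 ± 0.20, adjusted p = 0.00068, and -1.06 ± 0.13, adjusted p = 0.00010). These genes share near-identical sequence, so reads may be split among them. MT3, the brain form, had moved the other way at 4 h, with 1.0 and 0.735 CPM there against 3.57 and 2.27 CPM in the controls and 6.96 and 6.52 CPM at 24 h (log2 change 1.20 ± 0.23, adjusted p = 0.0039). The list of metallothioneins and zinc handling had 9 higher and 2 lower of 20, and the 9 became 5, 4, 6 and 4 without each library in turn.

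Targets of NRF2, the regulator of antioxidant genes, were 2 higher and 7 lower of 23. AKR1C1 and AKR1C2, aldo-keto reductases that also convert steroids, stood at 193 and 189 CPM in the controls and 85 and 79.6 CPM at 24 h (log2 change -1.22 ± 0.06, adjusted p = 1.2e-06) and 48.4 and 47.7 CPM in the controls and 24.3 and 20.9 CPM at 24 h (log2 change -1.09 ± 0.10, adjusted p = 3.8e-05). These 2 genes are near-identical and may share reads. ABCC2, a drug efflux pump, was at 30.6 and 33.7 CPM in the controls and 18.4 and 18.8 CPM at 24 h (log2 change -0.79 ± 0.10, adjusted p = 0.00041). OSGIN1 stood at 35.8 and 36.8 CPM in the controls and 28.3 and 27.5 CPM at 24 h (log2 change -0.38 ± 0.07, adjusted p = 0.0027). All 4 were lower in both libraries. TXNRD1 and FTL, the members of highest CPM not called, had log2 changes of 0.14 ± 0.06 and 0.06 ± 0.08. FTH1 and HMOX1 were the 2 called higher, and both lost their calls in other settings. HMOX1 stood at 387 and 372 CPM in the controls and 489 and 416 CPM at 24 h, down from 3194 and 2914 CPM at 4 h (log2 difference -2.75 ± 0.08, adjusted p = 5.5e-09).

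ATF4 targets, the genes of the integrated stress response, were 1 higher and 10 lower of 28, and 1 and 14 with library totals. MARS and CARS, which charge transfer RNA with methionine and cysteine, stood at 276 and 247 CPM in the controls and 194 and 196 CPM at 24 h (log2 change -0.42 ± 0.07, adjusted p = 0.0010) and 169.5 and 155 CPM in the controls and 121 and 127 CPM at 24 h (log2 change -0.39 ± 0.07, adjusted p = 0.0021). ATF5, a transcription factor of the same response, stood at 79.7 and 69.6 CPM in the controls and 52.4 and 52.7 CPM at 24 h (log2 change -0.51 ± 0.08, adjusted p = 0.0014). NUPR1, a stress-induced regulator, stood at 64.6 and 53.7 CPM in the controls and 35.7 and 38.3 CPM at 24 h (log2 change -0.68 ± 0.11, adjusted p = 0.0016). All were under their controls in both libraries. DDIT3, the factor CHOP, was the 1 called higher, at 72.8 and 59.9 CPM in the controls and 82.2 and 88.7 CPM at 24 h (log2 change 0.36 ± 0.10, adjusted p = 0.028), and lost its call in other settings. The ER unfolded protein response had 2 higher and 2 lower of 21 (19% called), all 4 lost in other settings, and HSPA5, its main chaperone, was at 1408 and 1364 CPM in the controls and 1254 and 1237 CPM at 24 h (log2 change -0.15 ± 0.05, adjusted p = 0.057). Of 19 heat shock genes 5 were higher and 1 lower, the 5 becoming 3, 3, 3 and 3 without each library in turn. HSP90AA1, the inducible HSP90, stood at 1202 and 1321 CPM in the controls and 1969.8 and 1935 CPM at 24 h (log2 change 0.63 ± 0.06, adjusted p = 6.5e-05). HSPA8 stood at 1644 and 1719 CPM in the controls and 2118 and 2083 CPM at 24 h (log2 change 0.32 ± 0.06, adjusted p = 0.0035). Both were above their controls.

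Signalling lists were 32 higher and 26 lower of 160 measured (36.2%, against 22.3% of all genes), and 23 and 33 with library totals. Without each library in turn there were 14, 23, 18 and 17 higher and 9, 11, 10 and 8 lower. Immediate early genes went both ways, 7 higher and 5 lower of 22, and 4, 5, 5 and 4 higher and 2, 1, 0 and 1 lower without each library in turn. EGR1, a growth factor-induced factor, stood at 24.4 and 23.8 CPM in the controls and 49.3 and 55 CPM at 24 h (log2 change 1.11 ± 0.12, adjusted p = 0.00012). KLF2, which answers to flow and statins in vessels, stood at 1.93 and 2.44 CPM in the controls and 7.14 and 6.99 CPM at 24 h (log2 change 1.69 ± 0.22, adjusted p = 0.00038). FOSL1, an AP-1 subunit, stood at 515 and 502 CPM in the controls and 708 and 687 CPM at 24 h (log2 change 0.46 ± 0.07, adjusted p = 0.0012). NR4A1, an orphan receptor, was at 4.39 and 4.37 CPM in the controls and 7.27 and 6.9 CPM at 24 h (log2 change 0.69 ± 0.14, adjusted p = 0.0052), whereas its relatives NR4A2 and NR4A3 were called lower, with log2 changes of -1.05 and -0.91. The other falls were KLF4, IER2 and JUN (-0.66, -0.37 and -0.31). These 5 lost their calls in other settings. Feedback genes of the MAPK pathway were 4 higher and 3 lower of 19, with 0, 0, 0 and 0 lower without each library in turn. SPRY2, which damps receptor signalling, stood at 123 and 126 CPM in the controls and 189.9 and 183 CPM at 24 h (log2 change 0.58 ± 0.06, adjusted p = 9.0e-05), and the phosphatases DUSP1 and DUSP5 at 124 and 117 CPM in the controls and 191 and 178 CPM at 24 h (log2 change 0.61 ± 0.07, adjusted p = 0.00011) and 49.7 and 46.7 CPM in the controls and 71.2 and 73.5 CPM at 24 h (log2 change 0.59 ± 0.08, adjusted p = 0.00033).

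TGF-beta and BMP targets were 6 higher and 2 lower of 22, but 3 and 3 with library totals, and the 6 became 2, 5, 2 and 3 without each library in turn. ID1, an inhibitor of differentiation factors, stood at 86.3 and 98.9 CPM in the controls and 149.8 and 146 CPM at 24 h (log2 change 0.68 ± 0.09, adjusted p = 0.00035). BMP6, a ligand, stood at 11.6 and 11.7 CPM in the controls and 7.48 and 7.43 CPM at 24 h (log2 change -0.64 ± 0.12, adjusted p = 0.0037). ID1 was higher and BMP6 lower in both libraries. Of 26 Notch, Wnt and hedgehog genes 1 was higher and 4 lower (19.2% called, against 22.3% of all genes), the 4 becoming 1, 3, 2 and 1 without each library in turn, and the only one called in every setting was HEY1, a Notch target, at 6.06 and 7.16 CPM in the controls and 3.33 and 3.29 CPM at 24 h (log2 change -1.0 ± 0.17, adjusted p = 0.0017). Of 18 YAP and TEAD targets 5 were higher and 1 lower, the 5 becoming 2, 4, 4 and 3 without each library in turn, and FJX1, the 1 lower, was at 71.4 and 75.8 CPM in the controls and 47 and 47.5 CPM at 24 h (log2 change -0.64 ± 0.08, adjusted p = 0.00028). Of 19 clock genes 3 were higher and 5 lower, or 1, 3, 1 and 1 and 2, 2, 3 and 2 without each library in turn, with NPAS2, a partner of ARNTL, at 219 and 214 CPM in the controls and 162 and 152 CPM at 24 h (log2 change -0.46 ± 0.07, adjusted p = 0.00098).

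Of 25 measured androgen-responsive genes, 6 were called higher and 2 lower (32%), but 4 and 5 with library totals, and the 6 became 1, 4, 2 and 2 without each library in turn. KLK2, KLK3 and TMPRSS2, the classic targets in prostate cells, did not pass the filter. TPD52, a tumour protein of secretory cells, stood at 34.8 and 33.6 CPM in the controls and 53.4 and 53.1 CPM at 24 h (log2 change 0.64 ± 0.07, adjusted p = 0.00017). KRT8, a keratin, stood at 7.85 and 8.2 CPM in the controls and 4.12 and 4.14 CPM at 24 h (log2 change -0.96 ± 0.16, adjusted p = 0.0017). FKBP5, a chaperone of steroid receptors, was at 8.16 and 9.09 CPM in the controls and 13.5 and 14.7 CPM at 24 h (log2 change 0.71 ± 0.14, adjusted p = 0.0046), and it lost its call in other settings. Of 11 genes of drug and xenobiotic response edgeR and DESeq2 each called none higher, and edgeR called 4 lower, the 4 becoming 1, 1, 1 and 1 without each library in turn, with 1 higher and 4 lower at an unadjusted p under 0.05.

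Housekeeping lists were measured beside these. None of 40 ribosomal protein genes was called by edgeR, DESeq2 or limma-voom, and 1 was lower at an unadjusted edgeR p under 0.05, while of 30 proteasome genes 2 were higher and 2 lower. Together 5.71% of these 70 genes were called, against 22.3% of all tested genes. RPL3 stood at 1332 and 1237 CPM in the controls and 1186 and 1181 CPM at 24 h (log2 change -0.12 ± 0.07, adjusted p = 0.23). Library totals called 3 ribosomal genes lower.

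To place 24 h in the time course, it was tested against 4 h and 48 h. Between 4 and 24 h 5997 genes (41.5%) were called, 3068 higher (21.2%) and 2929 lower (20.3%). At least 2-fold were 604 higher (4.18%) and 545 lower (3.77%). Between 24 and 48 h the count was 9652 genes (66.8%), 4548 higher (31.5%) and 5104 lower (35.3%), of which 798 (5.52%) and 2330 (16.1%) by at least 2-fold. Library totals moved the median log2 difference of all genes from -0.07 to -0.28 in this comparison and gave 3088 higher and 6527 lower. At 4 h itself, 28.6% of genes were called against the same controls. All 20 spindle motors and kinases, all 18 kinetochore genes and all 10 cytokinesis genes were higher at 24 h than at 4 h, with median log2 differences of 1.99, 1.93 and 1.98. These differences start from levels below control. At 4 h against control 20, 15 and 10 of these genes were called lower, and 1 kinetochore gene was called higher. The median log2 changes at 4 h against control were -1.01, -0.74 and -0.83. From 24 to 48 h, 12 of the motors fell and 5 rose, 15 of the kinetochore genes fell and 1 rose, and 18 of 21 origin genes fell and 1 rose. From 24 to 48 h the median log2 difference was -0.80 for origins and -0.80 for polymerases and fork, -0.85 for the kinetochore, -0.47 for motors and -0.36 for cytokinesis, and differences between these lists were not tested. With library totals 2 motors, no kinetochore gene and no origin gene rose. All 40 ribosomal protein genes, none of them called at 24 h against control, were higher at 48 h than at 24 h, or 39 of them with library totals.

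Several regulators of S phase were highest at 24 h. CCNE1 was at 11.5 and 12.8 CPM at 4 h, 23.5 and 24.6 CPM at 24 h and 9.53 and 8.42 CPM at 48 h, where it fell (log2 difference -1.42 ± 0.12, adjusted p = 1.1e-06). E2F8 went from 2.72 and 2.5 CPM to 21.4 and 25.6 CPM and back to 1.43 and 1.24 CPM (-4.13 ± 0.19, adjusted p = 1.5e-08). Both were higher at 24 h than in any other group. HJURP instead went from 17.4 and 18.1 CPM to 82.3 and 78.8 CPM and then 95 and 89.6 CPM, and TOP2A from 97.8 and 102 CPM to 519 and 511 CPM and 445 and 462 CPM. The 48 h values of HJURP lay above those of 24 h and those of TOP2A below. FAM111B, a replication-linked protease, was at 28.8 and 31.1 CPM at 24 h and 1.22 and 1.03 CPM at 48 h (-4.72 ± 0.15, adjusted p = 1.1e-09).

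**Figure D4:**
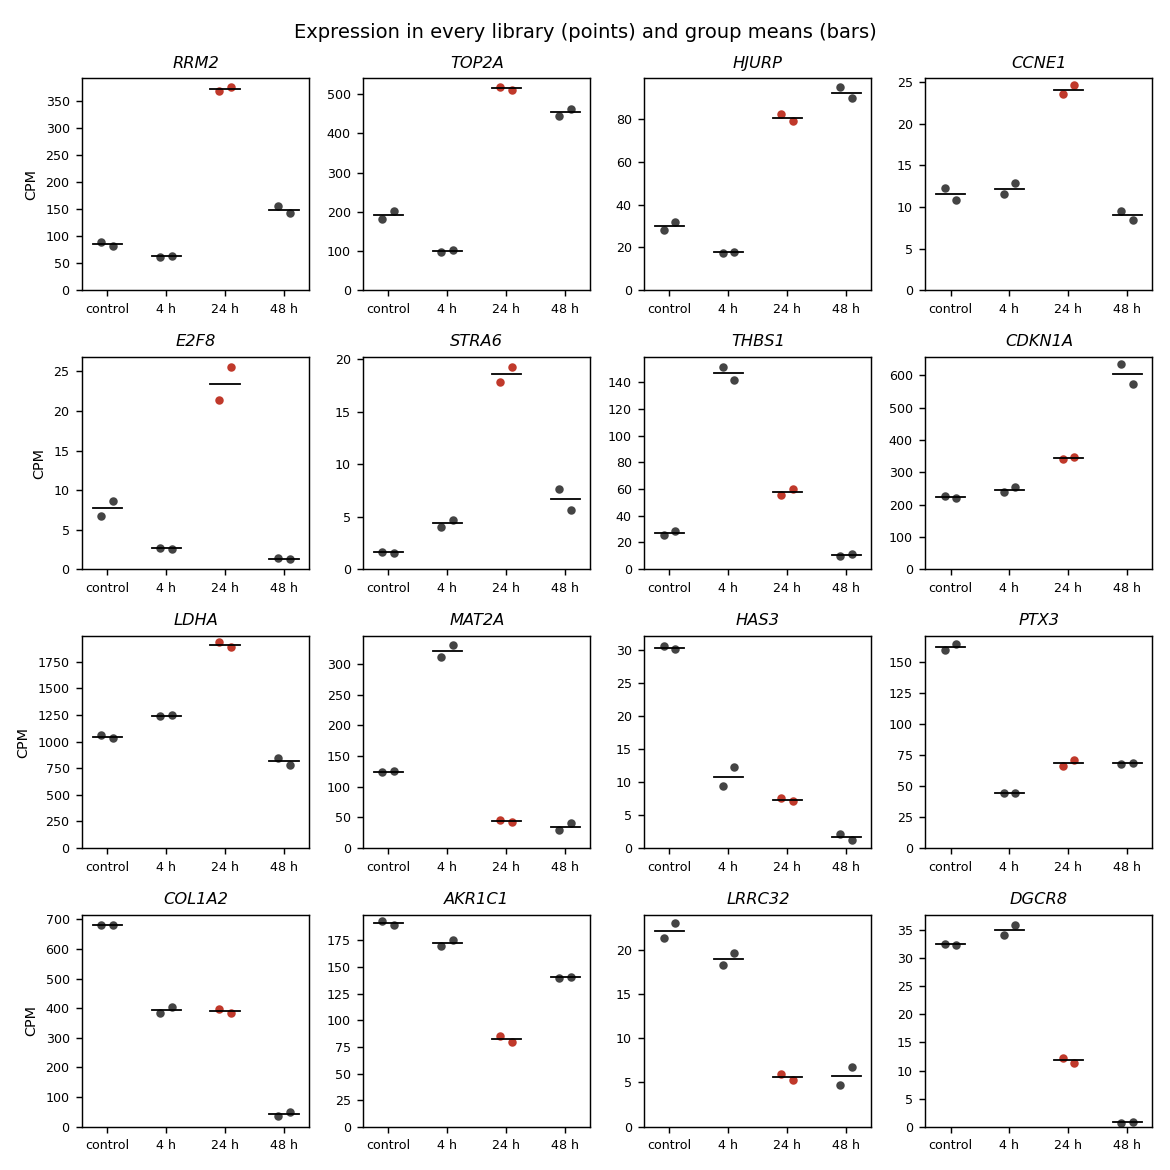
CPM of 16 genes in each of the 8 libraries (points) with group means (bars), by time of treatment on the x axis, with the 24 h libraries in red. RRM2, CCNE1, E2F8 and STRA6 are highest at 24 h, THBS1 and MAT2A are highest at 4 h, CDKN1A is highest at 48 h, and HAS3, COL1A2 and DGCR8 lie lowest at 48 h.

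Further genes were named for their differences from 4 h or to 48 h. PPP1R10, a nuclear regulator of protein phosphatase 1, was at 67 and 68.5 CPM in the controls and 50 and 47.8 CPM at 24 h (log2 change -0.47 ± 0.07, adjusted p = 0.0012) and had dropped to 0.646 and 0.584 CPM at 48 h (-6.30 ± 0.13, adjusted p = 1.5e-10). FBXO32, the ubiquitin ligase atrogin-1, was at 70.8 and 74.4 CPM in the controls and 44.6 and 50.1 CPM at 24 h (log2 change -0.62 ± 0.07, adjusted p = 0.00016) but reached 483 and 487 CPM at 48 h (3.36 ± 0.08, adjusted p = 3.1e-10). The first fall thus deepened and the second reversed. ADM, lower at 24 h, reached 821 and 698 CPM at 48 h (3.30 ± 0.08, adjusted p = 4.4e-10). GPR39, a zinc-sensing receptor, was at 9.49 and 8.74 CPM in the controls and 5.36 and 3.67 CPM at 24 h (log2 change -1.01 ± 0.18, adjusted p = 0.0026) and at 0.17 and 0.241 CPM at 48 h. C5orf45 and SLC9A3 had both been higher at 4 h, with 98.5 and 109 and 32.8 and 32.9 CPM. By 24 h C5orf45 was at 19.5 and 20.6 CPM in the controls and 26.8 and 29.7 CPM at 24 h (log2 change 0.49 ± 0.09, adjusted p = 0.0026). SLC9A3, a sodium-proton exchanger, stood at 13.5 and 15 CPM in the controls and 8.3 and 9.9 CPM at 24 h (log2 change -0.65 ± 0.12, adjusted p = 0.0026).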

How the data were processed

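RNA was sequenced in 8 libraries of U87MG cells, 2 per group. The authors deposited raw read counts per gene symbol, 1 table per library. The submitters' processing notes name Bowtie and the builds hg19 and GRCh37. No label or header used here names the counting program, its annotation or its strand setting, so overlapping genes cannot be separated. Of the gene names, 28 read as dates, with 0.191 to 0.224% of counts. They stayed in the fit and are not named.

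Genes were kept by filterByExpr, scaled by TMM and fitted in edgeR 4.0.16 (R 4.3.3) with a mean for each of the 4 groups over all 8 libraries, 4 residual degrees of freedom and a common biological variation of 7.16%. Quasi-likelihood tests were adjusted by Benjamini-Hochberg, with calls under 0.05. Standard errors came from the log2 change and its F statistic. The scripts were tested on simulated data. Alternatives used DESeq2 1.42.0, limma 3.58.1, other scalings and filters, a replicate block and fewer libraries. An adjustment for gene length and GC was added after seeing the data.

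Members and the 74 gene lists were chosen with earlier results of these data known. The genes to name were taken by rule: the top 15 each way among calls whose groups did not overlap and whose average log2 CPM reached 2, up to 5 called and 2 uncalled per list, every member of lists with at most 10 measured, the 8 largest differences from 4 h and to 48 h each way, and up to 8 genes called in opposite directions at 4 and 24 h. Some genes that this rule selects are not reported here. Promoters came from RefSeq, GRCh38.p14.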

Additional observations from a re-analysis of the deposited data

Results flagged for a closer look

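The change against control was called in opposite directions at 4 h and at 24 h in 694 genes, lower and then higher in 507 and higher and then lower in 187. This count left out names that read as dates and every gene whose average log2 CPM fell short of 2. It also required a call between 4 and 24 h, so it is no share of all tested genes. The comparisons of 4 h and of 24 h with control share the same 2 control libraries. The 7 genes below are examples taken from the 694 by rule. That choice already fixes a difference between 4 and 24 h, so their differences are a description with no test. E2F2 was at 4.79 and 4.66 CPM in the controls, 0.92 and 1.5 CPM at 4 h and 12 and 14.2 CPM at 24 h (24 h minus 4 h log2 difference 3.39 ± 0.21). E2F8, a repressor of the same family, was at 6.71 and 8.63, 2.72 and 2.5 and 21.4 and 25.6 CPM (log2 difference 3.17 ± 0.17). Both were low at 4 h and high at 24 h in every library. AURKB, the kinase of the chromosomal passenger complex, was at 16.2 and 16.2, 5.24 and 6.0 and 42.1 and 38.1 CPM (log2 difference 2.83 ± 0.12). SPC24 of the NDC80 complex was at 5.61 and 6.39, 2.24 and 2.35 and 15.3 and 18.2 CPM (log2 difference 2.86 ± 0.19). IQGAP3, a scaffold made in dividing cells, was at 19.9 and 25.9, 10.2 and 10.2 and 61.4 and 63.2 CPM (log2 difference 2.61 ± 0.12). These 3 went the same way as the E2F genes. MT3, a metallothionein, was at 3.57 and 2.27, 1.0 and 0.735 and 6.96 and 6.52 CPM (log2 difference 2.98 ± 0.28). MAT2A went the opposite way, at 124 and 126, 311 and 330.5 and 45.6 and 42.3 CPM (log2 difference -2.87 ± 0.12). No explanation was tested.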

How the results depend on the processing

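A call with at least 2-fold change left 244 higher and 171 lower at 24 h against control, 604 and 545 against 4 h, and 798 and 2330 at 48 h against 24 h. With only the 4 libraries compared 2639 genes were higher and 2412 lower at 24 h against control. Without the 48 h libraries 2577 were higher and 2330 lower. Leaving out 1 library at a time gave 843 to 2879 higher and 489 to 2075 lower at 24 h against control, 2025 to 3730 higher and 1798 to 3609 lower against 4 h, and 3899 to 4755 higher and 4374 to 5056 lower at 48 h against 24 h. The replicate block gave 2169 higher and 1580 lower at 24 h against control, 3240 and 3130 against 4 h, and 4661 and 5229 at 48 h against 24 h. The labels give replicate numbers but no shared culture, so the numbers were not taken as pairs. Deviations of same-numbered libraries correlated at 0.174 for control and 24 h, 0.350 for control and 48 h and 0.240 for 24 and 48 h. The 4 h libraries gave 0.046 with control, -0.075 with 24 h and 0.001 with 48 h. With only 2 numbers, these values cannot settle whether the numbers mark pairs. Of 487 genes named by the rule, 333 were called, and 95 of these lost the call in at least 1 setting. Library totals turned the majority of 4 lists, given beside them where described. For the pentose phosphate pathway they gave 2 higher and 3 lower in place of 2 and 1. Other settings turned majorities too, of 3 lists with only the 4 libraries compared and of 3 without the 48 h libraries. Of 72 lists, the median changed sign in 9 with library totals, in 9 with the length and GC adjustment and in 11 without control 1. Depths were 24620833 to 37162565 counts with 2 libraries per group, and low genes rested on few counts, such as 13 and 32 for MT1G in the controls.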
